A study of Sus scrofa with 3 samples.

Results

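Solute carriers are membrane proteins that move small molecules and ions across the plasma membrane and the membranes of organelles without hydrolysing ATP themselves. The genes described here are all Ensembl gene IDs of the deposited pig liver tables whose symbol is SLC followed by a family number, leaving out the mitochondrial SLC25 family, SLC40A1 and SLC34A2. The rule found 251 of 25322 gene IDs, among the 11804 that could be matched to a symbol, and it used no measured value. Of the 251 members, 146 were expressed, which here means at least 1 count per 1000000 gene counts (CPM) in at least 1 library. A further 78 had counts below that level, and 27 had no count in any library. SLC4A1AP, 1 of the expressed members, bears the family name but encodes the adaptor protein kanadaptin.

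RNA was sequenced from the livers of 3 male pigs at postnatal day 90, with 1 library each from an Enshi black pig, a Chinese wild boar and a Large White pig. The Enshi black pig is a native breed of China and the Large White a commercial breed of European origin, and the labels name no genotype, diet or treatment for any animal. Breed, animal and library cannot be told apart in this design, so there is no p-value and every difference below lies between libraries. The question put to the members was how carriers of amino acids, sugars, ions and organic anions compare among the libraries of the 3 breeds.

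In the liver, carriers on the sinusoidal side of the hepatocyte take up bile acids, drugs, amino acids, vitamins and fatty acids from portal blood, and others release glucose to it. Transport by many of them is driven by the sodium gradient that the sodium pump maintains. Carriers inside the cell exchange sugar phosphates, nucleotide sugars, metals and amino acids with the endoplasmic reticulum, Golgi, lysosomes and vesicles. Some work only as heteromers, such as the SLC7 light chains with their SLC3 heavy chains, or SLC51A with SLC51B.

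Gene counts totalled 20654571 in the Enshi black library, 20215871 in Chinese wild boar and 19982627 in Large White, so that 1 count was worth between 0.0463 and 0.0512 CPM after scaling with TMM factors. All CPM values below are on that scale, and because a CPM also grows with the length of a transcript, it is compared between libraries and not between genes. In parentheses after a fold or ratio stands its exact 95% interval, which reflects counting error and nothing else. The size rule asked that the whole interval lie at least 2-fold above or below 1, and a member that met it is said to have passed. Of the 12 genes fixed as hepatocyte markers that had an ID, 11 were expressed, with summed CPM of 114051 in Enshi black, 98084 in Chinese wild boar and 68061 in Large White. These sums were led by albumin (ALB), with 66508, 53648 and 25310 CPM in the same order. Of the 11 markers, 7 or 63.6% were above Large White in Enshi black, beside 50.6% of all expressed genes. In Chinese wild boar it was 5 or 45.5%, beside 50.1%. FGB, TTR, TAT and CPS1 were lower in Enshi black than in Large White, FGB with 605, 2346 and 2740 CPM in the same order.

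Solute carriers took a small share of the gene counts, as far as their IDs could be matched to a symbol. They made up 0.548% of gene counts in Enshi black (95% Wilson interval 0.544 to 0.551), 0.629% in Chinese wild boar (0.626 to 0.632) and 0.612% in Large White (0.608 to 0.615). Their summed CPM was 5241, 6427 and 6254, and Enshi black was the lowest by both measures. Most reads came from the carriers of amino acids and of organic anions and cations. Amino acid and peptide carriers summed to 1449 CPM in Enshi black, 1610 in Chinese wild boar and 1915 in Large White, and organic anion and cation carriers to 1329, 1753 and 1658 CPM. The fatty acid carriers stood at 151 CPM in Enshi black, 340.2 in Chinese wild boar and 169 in Large White. In the metal and heme class the Chinese wild boar sum was also the highest, with 412, 647 and 444 CPM in the same order.

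**Figure D1:**
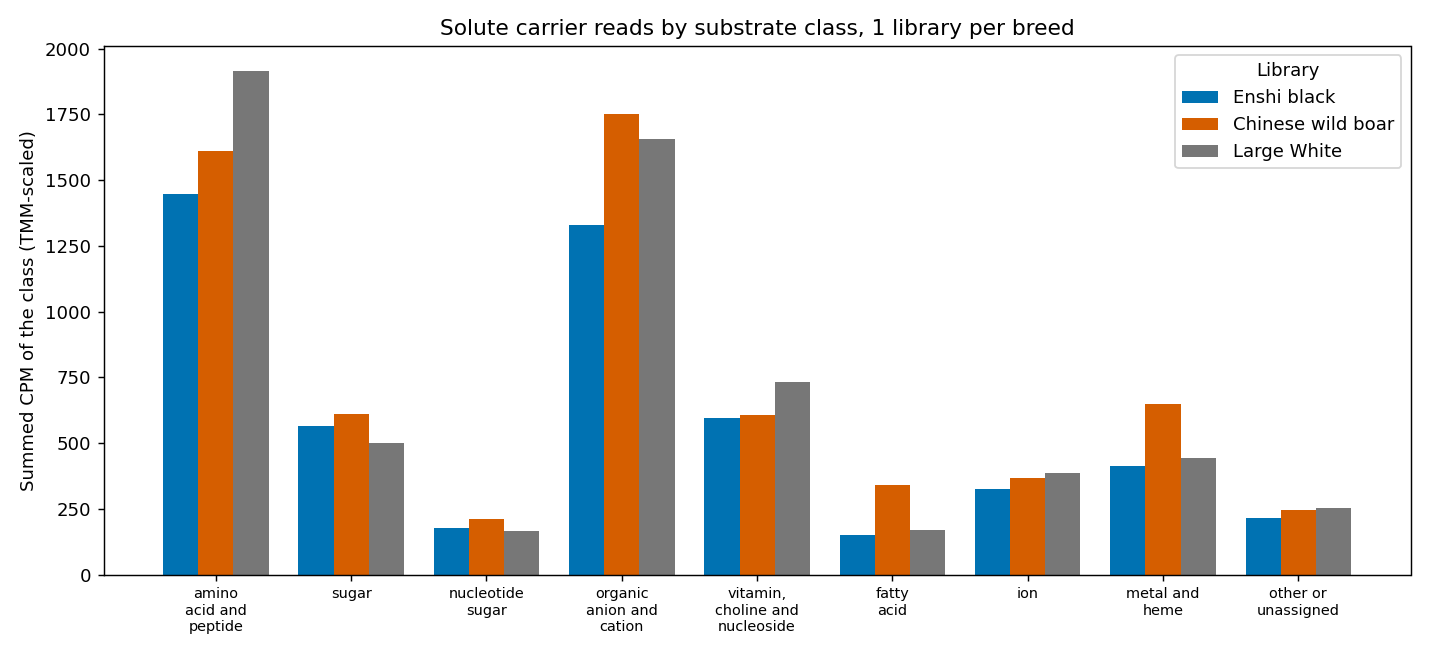
Summed CPM (TMM-scaled, linear axis from 0) of the members of each substrate class in the Enshi black, Chinese wild boar and Large White libraries, 1 bar per library, with no replicates. The amino acid and the organic anion and cation classes hold the tallest bars, and the Chinese wild boar bar is the tallest for fatty acid (340.2 CPM) and for metal and heme carriers (647 CPM).

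By the median ratio, members varied among libraries about as much as other genes. The median ratio of the highest to the lowest library was 1.74 over 145 expressed members with a count in every library, beside 1.68 over all expressed genes taken in the same way. A ratio of at least 2 was more frequent among members, at 59 of 146 or 40.4%, beside 33.5% of all expressed genes. Of the 146 expressed members, 34 or 23.3% passed the size rule in at least 1 of the 3 comparisons, and the same held for 19.8% of all 13228 expressed genes. The lowest library was Enshi black for 57 members, Chinese wild boar for 41 and Large White for 48. Of the 43 members with a mean below 5 CPM, 11 or 25.6% passed in some comparison, beside 26.1% of all expressed genes at that level. From 5 to 20 CPM it was 10 of 43 members or 23.3%, beside 17.5%. From 20 to 100 CPM it was 11 of 45 members or 24.4%, beside 15.1%. At 100 CPM and above it was 2 of 15 members or 13.3%, beside 21.7%.

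In the first comparison, Enshi black against Large White, the cationic amino acid carrier SLC7A2, the citrate carrier SLC13A5, the organelle protein SLC66A2 and the imino acid carrier SLC6A20 were lower in Enshi black. Higher in Enshi black were the cystine carrier SLC7A9, the sodium-dependent sugar carrier SLC5A9, the thiamine carrier SLC19A2 and the magnesium carrier SLC41A2. In all, 7 expressed members passed higher and 16 lower. That is 4.79% and 10.96% of the expressed members, beside 4.69% and 8.39% of all expressed genes, of which 13.1% passed in either direction. The median log2 fold of the members was -0.012, beside 0.0102 over all expressed genes. With total counts in place of TMM both medians moved up together, to 0.081 for the members and 0.10 for all expressed genes.

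The second comparison, Chinese wild boar against Large White, showed fewer differences. Higher in Chinese wild boar were the fatty acid carriers SLC27A2 and SLC27A6, together with SLC7A9, SLC41A2 and the anion exchanger SLC26A8. Lower were the sugar phosphate exchanger SLC37A2, the glucose carrier SLC2A6, the vesicular zinc carrier SLC30A2, the creatine carrier SLC6A8 and the lactate carrier SLC16A3. Each direction held 5 members, or 3.42%, beside 2.96% of all expressed genes that passed higher and 3.74% that passed lower, or 6.7% in either direction. The median log2 fold was -0.063 for the members and 0.00111 for all expressed genes.

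In the third comparison, Enshi black against Chinese wild boar, the lactate carrier SLC16A3, SLC19A2 and the bile acid and steroid carrier subunit SLC51A were higher in Enshi black. The 14 lower members included SLC66A2, SLC6A20, SLC7A2, the monocarboxylate carrier SLC16A13, 3 fatty acid carriers and the zinc carrier SLC39A5. The 3 higher members were 2.05% and the 14 lower ones 9.59% of the expressed members, beside 4.03% and 7.1% of all expressed genes, of which 11.1% passed in either direction. Among the 3, SLC51A was expressed only through its Enshi black value. The median log2 fold was -0.022 for the members and 0.0095 for all expressed genes, and with total counts it was 0.069 for the members and 0.10 for all expressed genes. The 3 comparisons share libraries, so the same library can set a member apart in 2 of them.

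**Figure D2:**
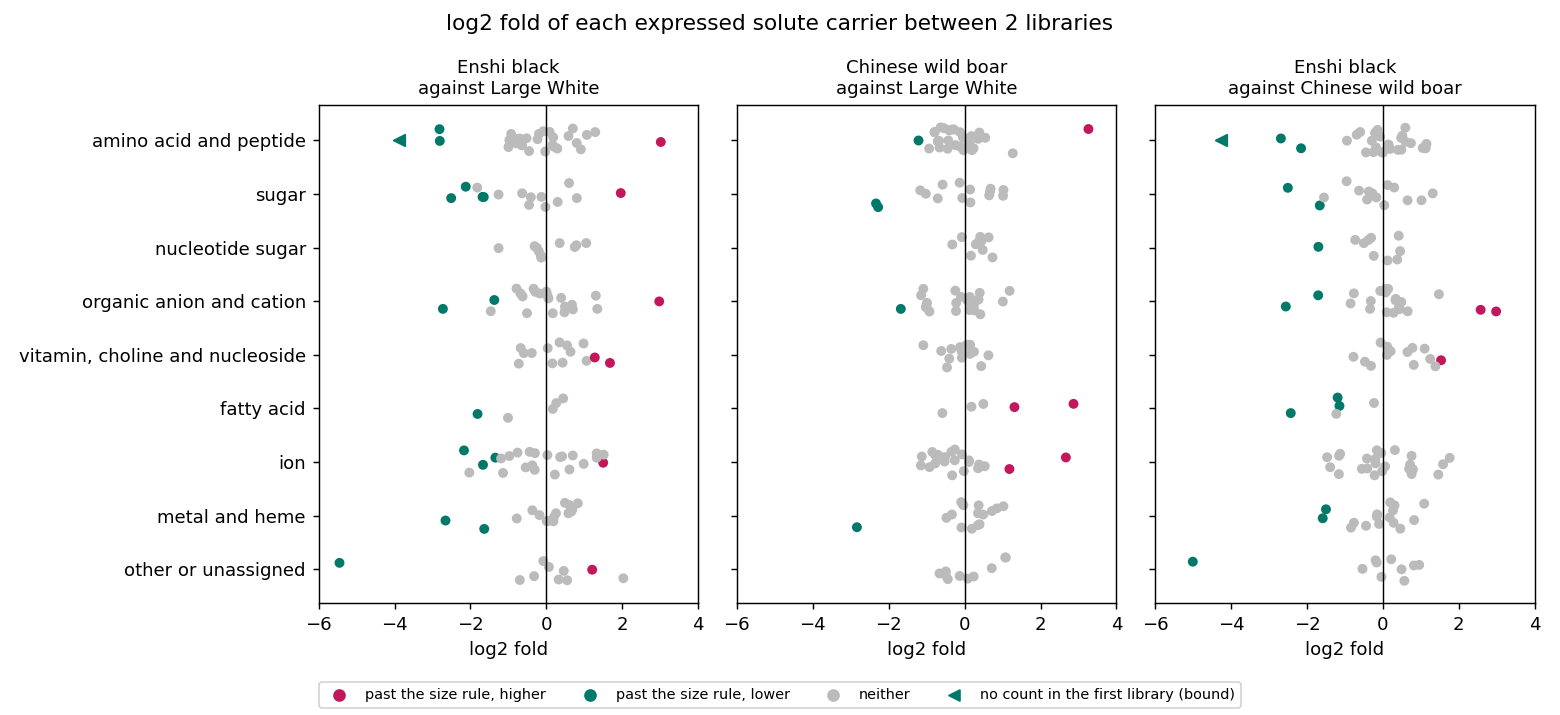
log2 fold of each expressed solute carrier (x axis) by substrate class (y axis) in the 3 comparisons, SLC4A1AP left out. Each point is 1 gene, coloured by whether it passed the size rule as higher or lower, and a triangle marks a bound where the first library had no count. Most points lie within 1 log2 unit of 0, and SLC66A2, in the last class, lies farthest to the left in both panels that involve Enshi black.

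Counts of calls in the classes and lists below are to be read against the shares of all expressed genes given above, which in the first comparison were 4.69% higher and 8.39% lower, in the second 2.96% and 3.74%, and in the third 4.03% and 7.1%. With 5 to 29 expressed members in a class, 1 call moves its share by several percentage points.

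Amino acid and peptide carriers were the class with the most members, 29 of 54 being expressed. The abundant members showed modest ratios, and the larger ones lay in a few carriers. SLC38A3, a sodium-coupled glutamine carrier of hepatocytes, had 492 CPM in Enshi black, 352 in Chinese wild boar and 428 in Large White. SLC38A4, which carries neutral amino acids and is typical of liver, had 210.3, 405 and 414 CPM, and thus was lowest in Enshi black, with a ratio of 0.509 (0.490 to 0.527) to Large White that did not pass. SLC38A10, from the same family, had 172 CPM in Enshi black, 181 in Chinese wild boar and 247 in Large White, so Large White was the highest. The betaine and GABA carrier SLC6A12 had 136, 103 and 160.2 CPM in that order.

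SLC7A2, which carries arginine, lysine and ornithine into hepatocytes, had 17.9 CPM in Enshi black, 115 in Chinese wild boar and 125 in Large White. The Enshi black value was 7.005-fold lower than Large White (6.29 to 7.82) and 6.43-fold lower than Chinese wild boar (5.77 to 7.19), and these calls also passed when variation between animals was allowed for, as a coefficient of variation of 0.4 that is assumed and not measured. The other cationic carrier of the family, SLC7A1, is known for wide expression outside the liver. It had 3.75 CPM in Enshi black, 1.72 in Chinese wild boar and 2.51 in Large White and passed in no comparison.

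A member low in Large White was SLC7A9, the light chain of the cystine and cationic amino acid carrier known from kidney and intestine. Its values were 9.92 CPM in Enshi black, 11.8 in Chinese wild boar and 1.23 in Large White, the last from 24 counts. Enshi black was 8.07-fold (5.28 to 12.9) and Chinese wild boar 9.59-fold (6.29 to 15.3) higher than Large White, and both passed with the added variation. Its heavy chain SLC3A1 did not follow, at 2.50, 2.27 and 3.94 CPM in the order Enshi black, Chinese wild boar and Large White, and passed nowhere. In the RefSeq annotation of Sscrofa11.1, a later build than the one used for counting, SLC7A9 overlaps the neighbouring gene TDRD12, so its reads are uncertain.

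SLC6A20, which carries proline and other imino acids, had no count in Enshi black, against 53 counts (2.68 CPM) in Chinese wild boar and 40 counts (2.05 CPM) in Large White. Set against a floor of 3 counts in the Enshi black library, it was at least 19.3-fold lower there than in Chinese wild boar and at least 14.7-fold lower than in Large White. It overlaps SACM1L in the same annotation. The glutamine carrier SLC38A1 had 1.11 CPM in Enshi black, 4.95 in Chinese wild boar and 7.83 in Large White. Enshi black was 7.04-fold lower than Large White (4.56 to 11.3) and 4.45-fold lower than Chinese wild boar (2.83 to 7.28). SLC38A1 overlaps 3 other loci in the RefSeq annotation. SLC38A2 and SLC38A4 lie next to each other in the RefSeq gene order and had ratios of 0.572 and 0.509 in Enshi black over Large White, neither of which passed.

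The creatine carrier SLC6A8 had 34.5 CPM in Enshi black, 24.2 in Chinese wild boar and 56.1 in Large White. Chinese wild boar was 2.32-fold lower than Large White (2.08 to 2.59). In total the class had 1 member higher and 3 lower in Enshi black against Large White. It had 1 higher and 1 lower in Chinese wild boar against Large White, and none higher and 3 lower in Enshi black against Chinese wild boar. Its median log2 folds were -0.19, -0.21 and -0.03 in these comparisons.

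Carriers known to be induced by amino acid shortage through the factor ATF4 were described as a list of 10 symbols, of which 8 had an ID and 6 were expressed. SLC3A2, the heavy chain shared by several amino acid exchangers, had 45.9 CPM in Enshi black, 46.8 in Chinese wild boar and 63.1 in Large White. The neutral amino acid exchanger SLC1A5 had 22.1, 14.7 and 23.4 CPM, and its relative SLC1A4 had 2.22, 1.47 and 1.28 CPM. SLC38A2, another glutamine carrier, stood at 7.65 CPM in Enshi black, 12.3 in Chinese wild boar and 13.4 in Large White. Within the list only SLC38A1 passed in any comparison.

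Sugar carriers had 15 of 21 members expressed, and the pair that serves glucose release by the liver was highest in different libraries. SLC37A4 brings glucose 6-phosphate into the endoplasmic reticulum, where it is split to glucose. It had 293 CPM in Enshi black, 391 in Chinese wild boar and 194 in Large White, and the ratio of Chinese wild boar to Large White was 2.02 (1.94 to 2.1), which did not pass. SLC2A2 or GLUT2, the main glucose carrier of the hepatocyte membrane, had 177, 113 and 101 CPM in the same order. Its ratio in Enshi black over Large White was 1.74 (1.65 to 1.84), also short of the rule. SLC45A4 was close in the 3 libraries at 21.8, 26.3 and 23.8 CPM.

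Several sugar carriers of lower read count were highest in Large White. SLC37A2, a phosphate-linked glucose 6-phosphate exchanger known from macrophages, had 14.9 CPM in Enshi black, 16.8 in Chinese wild boar and 84.9 in Large White. Enshi black was 5.69-fold (5.05 to 6.43) and Chinese wild boar 5.04-fold (4.48 to 5.69) lower than Large White, while Enshi black and Chinese wild boar lay close together. SLC2A6 or GLUT6, a lysosomal glucose carrier also known from macrophages, had 4.91, 2.43 and 11.8 CPM, and Chinese wild boar was 4.85-fold lower than Large White (3.54 to 6.77). In the RefSeq annotation SLC37A2 overlaps TMEM218, and SLC2A6 overlaps ADAMTS13 and CACFD1. Intracellular SLC2A8 had 4.59 CPM in Enshi black, 8.90 in Chinese wild boar and 20.01 in Large White, with Enshi black 4.36-fold lower than Large White (3.49 to 5.495). SLC2A11 had 4.68, 7.23 and 14.7 CPM and was 3.14-fold lower in Enshi black than in Large White (2.49 to 3.98).

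Markers of macrophages also had their highest sum in Large White. Of 14 such symbols 7 had an ID and were expressed, none of them at 0, with summed CPM of 1525 in Enshi black, 1756 in Chinese wild boar and 1971 in Large White. Among them CSF1R had 15.6, 55.7 and 111 CPM, and MARCO 21.4, 28.9 and 85.1 CPM, in the order Enshi black, Chinese wild boar and Large White. LYZ rose from 1.16 CPM in Enshi black through 3.29 in Chinese wild boar to 7.73 in Large White. Its Enshi black value lay 6.67-fold below Large White (4.35 to 10.6). For TIMD4, Enshi black stood at 24.0 CPM, Chinese wild boar at 24.9 and Large White at 51.0, without a call in any comparison. CD14, C1QA and CD68 differed less. CD14 had 861, 1056 and 1133 CPM, while C1QA was highest in Enshi black at 548, 517 and 522 CPM and CD68 in Chinese wild boar at 53.9, 70.7 and 61.2 CPM. Enshi black against Large White gave 3 of 7 passing lower and none higher, beside 8.39% and 4.69% of all expressed genes. Chinese wild boar against Large White gave 1 of 7 lower, beside 3.74%. The part of these cells in the values of SLC37A2 and SLC2A6 was not tested. In bulk liver, fewer cells of a type and less RNA per cell cannot be told apart.

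The remaining sugar carriers past the rule had few reads. SLC5A9, a sodium-coupled mannose and glucose carrier, had 9.55 CPM in Enshi black, 3.84 in Chinese wild boar and 2.46 in Large White, and was 3.89-fold higher in Enshi black than Large White (2.83 to 5.44). SLC2A10 had 2.83, 8.95 and 4.40 CPM, and Enshi black was 3.165-fold lower than Chinese wild boar (2.35 to 4.31). SLC5A4 had 5, 26 and 16 counts in Enshi black, Chinese wild boar and Large White, giving a 5.67-fold lower value in Enshi black than in Chinese wild boar (2.14 to 18.9). It was expressed only through its Chinese wild boar value. It neighbours SLC5A1 in the RefSeq order, which passed in no comparison, at 1.76, 2.27 and 1.43 CPM. SLC45A2, known for its role in pigment cells and named after its values were seen, had 32, 86 and 93 counts and was 3.21-fold lower in Enshi black than in Large White (2.13 to 4.96), a call that total counts did not keep. The class had 1 member higher and 4 lower, none higher and 2 lower, and none higher and 2 lower in the 3 comparisons. The lower ones were 26.7%, 13.3% and 13.3% of the 15 expressed sugar carriers, beside 8.39%, 3.74% and 7.1% of all expressed genes, and none was kept with the added variation. Median log2 folds were -0.45, -0.06 and -0.27.

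Nucleotide sugar carriers, which supply the Golgi and endoplasmic reticulum with donors for glycosylation, had 10 of 11 members expressed and 1 call over the 3 comparisons, in which 13.1%, 6.7% and 11.1% of all expressed genes passed in either direction. The GDP-fucose carrier SLC35C1 had 1.95 CPM in Enshi black, 6.32 in Chinese wild boar and 4.66 in Large White. Enshi black was 3.25-fold lower than Chinese wild boar (2.27 to 4.72). The most read member was SLC35C2, with 57.8, 95.9 and 68.9 CPM, and Chinese wild boar was the highest. SLC35B2, which carries the sulfate donor PAPS, had 44.7 CPM in Enshi black, 34.4 in Chinese wild boar and 25.8 in Large White. The last pair among the leading members, SLC35A4 with 22.0, 25.9 and 27.3 CPM and SLC35A5 with 15.3, 11.2 and 9.11 CPM, also did not pass. Median log2 folds of the class were -0.13, 0.39 and -0.26.

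Among organic anion and cation carriers 22 of 50 members were expressed, and the uptake carriers with the most reads did not pass in any comparison. SLC22A7 or OAT2, an uptake carrier of organic anions and nucleotides, had 476 CPM in Enshi black, 807 in Chinese wild boar and 735 in Large White. SLC10A1 or NTCP, the sodium-coupled bile acid uptake carrier, had 179, 322 and 287 CPM, and so was likewise lowest in Enshi black. Their ratios in Enshi black over Chinese wild boar were 0.589 (0.575 to 0.604) and 0.554 (0.532 to 0.577). SLC16A12, a creatine carrier, had 113 CPM in Enshi black, 107 in Chinese wild boar and 80.2 in Large White.

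SLC13A5, the sodium-coupled citrate carrier of the hepatocyte membrane, differed more. It had 6.81 CPM in Enshi black, 22.2 in Chinese wild boar and 45.1 in Large White, so that the 3 libraries were well apart. Enshi black was 6.62-fold lower than Large White (5.55 to 7.94) and 3.26-fold lower than Chinese wild boar (2.70 to 3.95), and the call against Large White was kept with the added variation. Chinese wild boar over Large White had a ratio of 0.492 (0.438 to 0.552), which did not pass. In the RefSeq annotation SLC13A5 overlaps FBXO39 and C12H17orf100.

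Within the monocarboxylate carriers of family SLC16, members went in different directions. SLC16A3 or MCT4, a lactate exporter of glycolytic cells, had 9.59 CPM in Enshi black, 1.21 in Chinese wild boar and 3.89 in Large White. Enshi black was 7.91-fold higher than Chinese wild boar (5.17 to 12.6), which was itself 3.21-fold lower than Large White (2.003 to 5.31). SLC16A13, a relative encoded beside and overlapping SLC16A11, had 5.65 CPM in Enshi black, 33.3 in Chinese wild boar and 14.6 in Large White. It was 5.88-fold lower in Enshi black than in Chinese wild boar (4.84 to 7.20) and 2.59-fold lower than in Large White (2.09 to 3.23), the last not kept with total counts.

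The subunits of the basolateral bile acid and steroid exporter had few reads. SLC51A had 26 counts in Enshi black, 4 in Chinese wild boar and 3 in Large White, with ratios of Enshi black to Chinese wild boar of 5.96 (2.07 to 23.5) and to Large White of 7.85 (2.40 to 40.5). It reached 1 CPM only in Enshi black, so it entered the calls through the library in which it was high. The partner of SLC51A, SLC51B, had 7.65, 6.06 and 3.02 CPM and passed in no comparison, although Enshi black was again the highest. The class had 1 member higher and 2 lower, none higher and 1 lower, and 2 higher and 2 lower in the 3 comparisons. Median log2 folds were 0.01, -0.01 and 0.12.

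Carriers of vitamins, choline and nucleosides had 14 of 23 members expressed, and the calls were all for higher values in Enshi black. SLC19A2, the thiamine carrier THTR1, had 14.04 CPM in Enshi black, 4.85 in Chinese wild boar and 4.40 in Large White. Enshi black was 3.19-fold higher than Large White (2.50 to 4.10) and 2.89-fold higher than Chinese wild boar (2.29 to 3.68). The choline carrier SLC44A1 had 51.9, 33.1 and 21.4 CPM, and was 2.42-fold higher in Enshi black than Large White (2.16 to 2.71). Its relative SLC44A2 had 55.7 CPM in Enshi black, 32.5 in Chinese wild boar and 41.5 in Large White.

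Members of this class with more reads were lower in Enshi black by ratios that did not pass. SLC5A6, the sodium-coupled carrier of biotin and pantothenate, had 218 CPM in Enshi black, 228 in Chinese wild boar and 349 in Large White. The nucleoside carrier SLC29A1 or ENT1 had 103, 144 and 156 CPM, and the vitamin C carrier SLC23A1 had 33.96, 58.1 and 56.2 CPM. In the class, 2 members were higher in Enshi black than Large White and 1 higher than in Chinese wild boar, with none lower, and none passed in Chinese wild boar against Large White. Median log2 folds were 0.38, -0.07 and 0.42.

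The fatty acid carriers were 5 members of family SLC27, each of them expressed, and SLC27A5, the bile acid ligase of the liver, was not analysed here. The summed CPM of the 5 was highest in Chinese wild boar, mainly through SLC27A2. These proteins take up long-chain fatty acids and activate them to acyl-CoA. SLC27A2, the most read of the 5, had 116 CPM in Enshi black, 257 in Chinese wild boar and 103 in Large White. Chinese wild boar was 2.48-fold higher than Large White (2.36 to 2.62), and Enshi black was 2.21-fold lower than Chinese wild boar (2.11 to 2.32). SLC27A6, known from the human heart, had 3.20, 17.2 and 2.35 CPM. It was 7.30-fold higher in Chinese wild boar than in Large White (5.35 to 10.16) and 5.37-fold lower in Enshi black than in Chinese wild boar (4.14 to 7.07), and the first of these was kept with the added variation.

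The other fatty acid carriers were lowest in Enshi black or close in the 3 libraries. SLC27A4 had 22.5 CPM in Enshi black, 51.3 in Chinese wild boar and 45.3 in Large White, and Enshi black was 2.28-fold lower than Chinese wild boar (2.05 to 2.55). SLC27A1, an insulin-responsive form in muscle and fat, had 3.80, 8.90 and 13.4 CPM and was 3.52-fold lower in Enshi black than in Large White (2.73 to 4.56). SLC27A3 had 5.33, 6.27 and 4.45 CPM and did not pass. The calls of SLC27A2 and SLC27A4 in Enshi black against Chinese wild boar were not kept with total counts. Of the 5 genes, 1 passed lower in Enshi black against Large White, 2 higher in Chinese wild boar against Large White, and 3 lower in Enshi black against Chinese wild boar. Among all expressed genes the shares were 8.39%, 2.96% and 7.1%, and with 5 members each call counts for 20% of the class. Median log2 folds were 0.17, 0.48 and -1.19.

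Ion carriers had 24 of 50 members expressed. The most read was SLC4A2 or AE2, a chloride and bicarbonate exchanger of bile duct cells and hepatocytes, with 105 CPM in Enshi black, 154 in Chinese wild boar and 143 in Large White. SLC41A2, a magnesium carrier, had 61.0, 49.0 and 21.6 CPM and was lowest in Large White. Enshi black was 2.82-fold (2.52 to 3.15) and Chinese wild boar 2.26-fold (2.02 to 2.54) higher than Large White. The other magnesium carriers, SLC41A1 with 5.47, 3.23 and 5.37 CPM and SLC41A3 with 6.21, 6.92 and 5.32 CPM, did not pass.

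Other ion carriers were highest in Large White. The potassium and chloride cotransporter SLC12A4 or KCC1 had 14.2 CPM in Enshi black, 31.5 in Chinese wild boar and 45.1 in Large White, with Enshi black 3.18-fold lower than Large White (2.79 to 3.64). The mitochondrial sodium and calcium exchanger SLC8B1 had 18.4 CPM in Enshi black, 21.2 in Chinese wild boar and 36.3 in Large White, and did not pass.

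A pair of ion carriers known from other organs passed at low counts. SLC26A8, an anion exchanger of the testis, had 44 counts in Enshi black, 90 in Chinese wild boar and 14 in Large White, and was 6.35-fold higher in Chinese wild boar than in Large White (3.59 to 12.1). It overlaps MAPK14 in the RefSeq annotation. SLC24A1, a calcium exchanger of rod photoreceptors that overlaps DENND4A, had 13, 33 and 53 counts, and was 4.50-fold lower in Enshi black than in Large White (2.42 to 9.004). The ion class gave 1 higher and 3 lower, 2 higher and none lower, and no call in the 3 comparisons, with median log2 folds of -0.30, -0.33 and -0.10.

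Metal and heme carriers had 16 of 21 members expressed. SLC39A5 or ZIP5, a basolateral zinc importer, had 108 CPM in Enshi black, 306 in Chinese wild boar and 186 in Large White. Enshi black was 2.83-fold lower than Chinese wild boar (2.69 to 2.96), and Large White lay between them. SLC39A5 overlaps ANKRD52 in the RefSeq annotation. The zinc importer SLC39A9 or ZIP9 had 73.5, 99.97 and 49.2 CPM, with a ratio of 2.03 (1.88 to 2.20) in Chinese wild boar over Large White that did not pass. SLC39A1 had 46.6, 49.9 and 39.1 CPM. SLC39A8, an importer of zinc and manganese, had 43.1 CPM in Enshi black, 34.9 in Chinese wild boar and 27.3 in Large White.

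Calls in this class at lower counts concerned a zinc exporter and a folate and heme carrier. SLC30A2 or ZnT2, which loads zinc into vesicles, had 21 counts in Enshi black, 17 in Chinese wild boar and 120 in Large White. Enshi black was 6.31-fold (3.95 to 10.6) and Chinese wild boar 7.15-fold (4.28 to 12.7) lower than Large White, and the Chinese wild boar call was kept with the added variation. SLC46A1, a proton-coupled carrier of folate and heme, had 2.04 CPM in Enshi black, 6.12 in Chinese wild boar and 6.35 in Large White. It was 3.11-fold lower in Enshi black than in Large White (2.19 to 4.50) and 2.9995-fold lower than in Chinese wild boar (2.11 to 4.34), the last not kept with total counts. None passed higher, and 2, 1 and 2 members passed lower in the 3 comparisons, with median log2 folds of 0.19, 0.27 and 0.03.

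Among the members without an assigned substrate was the largest fold of any expressed member with a count in every library. SLC66A2, a member of the PQ-loop family that includes the lysosomal amino acid exporters, had 31 counts or 1.44 CPM in Enshi black, against 46.2 CPM in Chinese wild boar and 62.8 CPM in Large White. It was 43.7-fold lower in Enshi black than in Large White (30.6 to 64.6) and 32.2-fold lower than in Chinese wild boar (22.5 to 47.6). The Enshi black library held 47 gene IDs with at most 3 counts at which both other libraries had at least 5 CPM, and 1 such ID was found in each of the others. No solute carrier was among them, SLC66A2 being above the 3 counts and SLC6A20 below the 5 CPM.

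SLC35F5, a member of the nucleotide sugar carrier family with no settled substrate, had 45.0 CPM in Enshi black, 32.0 in Chinese wild boar and 19.5 in Large White. It was 2.31-fold higher in Enshi black than Large White (2.05 to 2.60). Its relatives SLC35E2B, with 60.2, 68.8 and 75.4 CPM, and SLC35F6, with 39.9, 44.7 and 42.2 CPM, were close in the 3 libraries. SLC4A1AP, the member that is no carrier, had 22.3, 29.1 and 30.8 CPM.

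**Figure D3:**
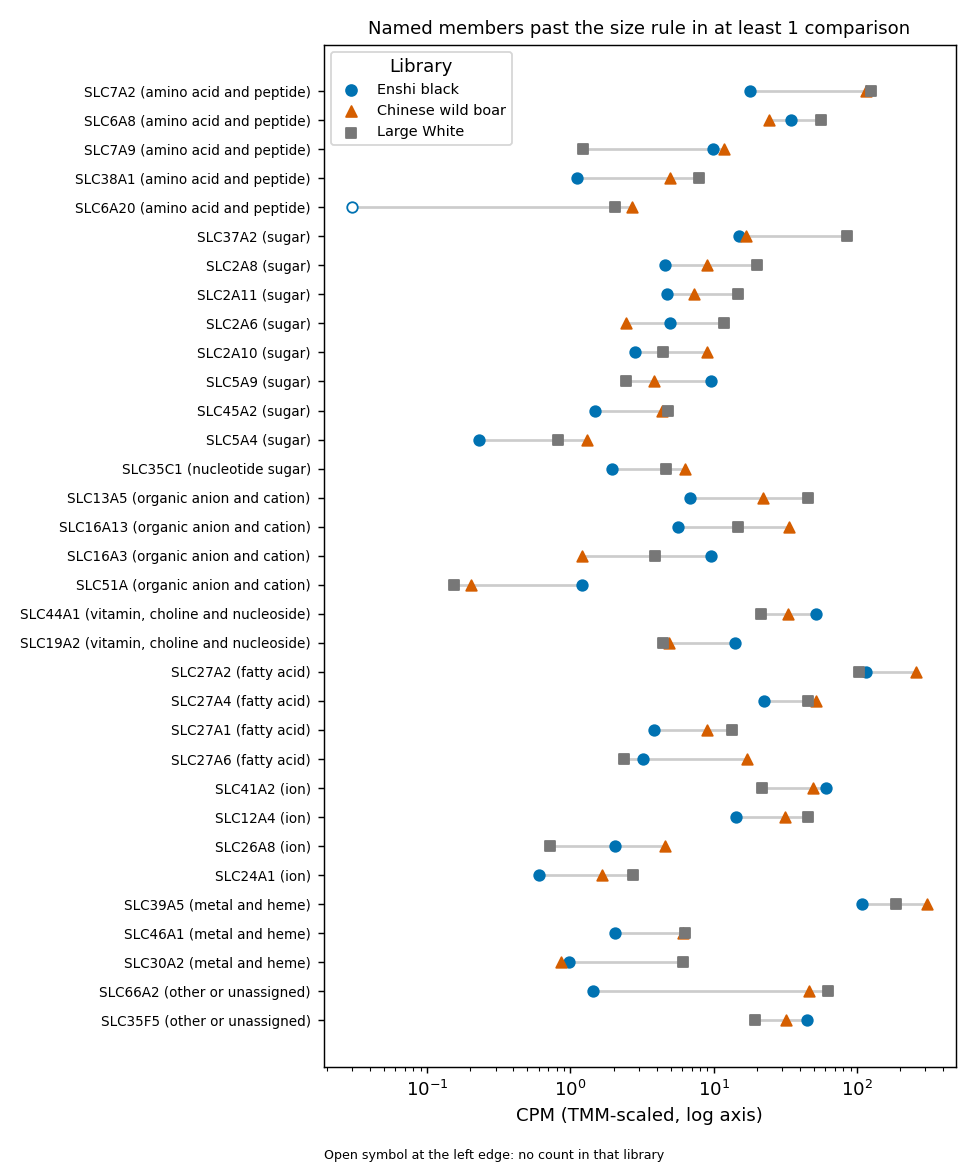
CPM (TMM-scaled, log axis) in the Enshi black (circle), Chinese wild boar (triangle) and Large White (square) libraries for the members named in the text that passed the size rule in at least 1 comparison, ordered by class. A grey line joins the values of a gene, and an open symbol at the left edge marks SLC6A20, which had no count in Enshi black.

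Members that passed in the same direction against both other libraries were few. In Enshi black SLC19A2 and SLC51A stood apart as higher and 7 members as lower, namely SLC13A5, SLC16A13, SLC38A1, SLC46A1, SLC66A2, SLC6A20 and SLC7A2. These 7 were 4.79% of the expressed members, beside 4.59% of all expressed genes, and the 2 higher ones 1.37% beside 1.71%. SLC51A, 1 of the 2 higher ones, was expressed only through its Enshi black value. In Chinese wild boar SLC27A2 and SLC27A6 stood apart as higher and SLC16A3 as lower, at 1.37% and 0.685% of members beside 1.19% and 0.884% of all expressed genes. Large White had SLC30A2 and SLC37A2 as higher, and SLC41A2 and SLC7A9 as lower, at 1.37% each beside 1.69% and 1.07%. Each of these shares is close to the share among all expressed genes.

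**Figure D4:**
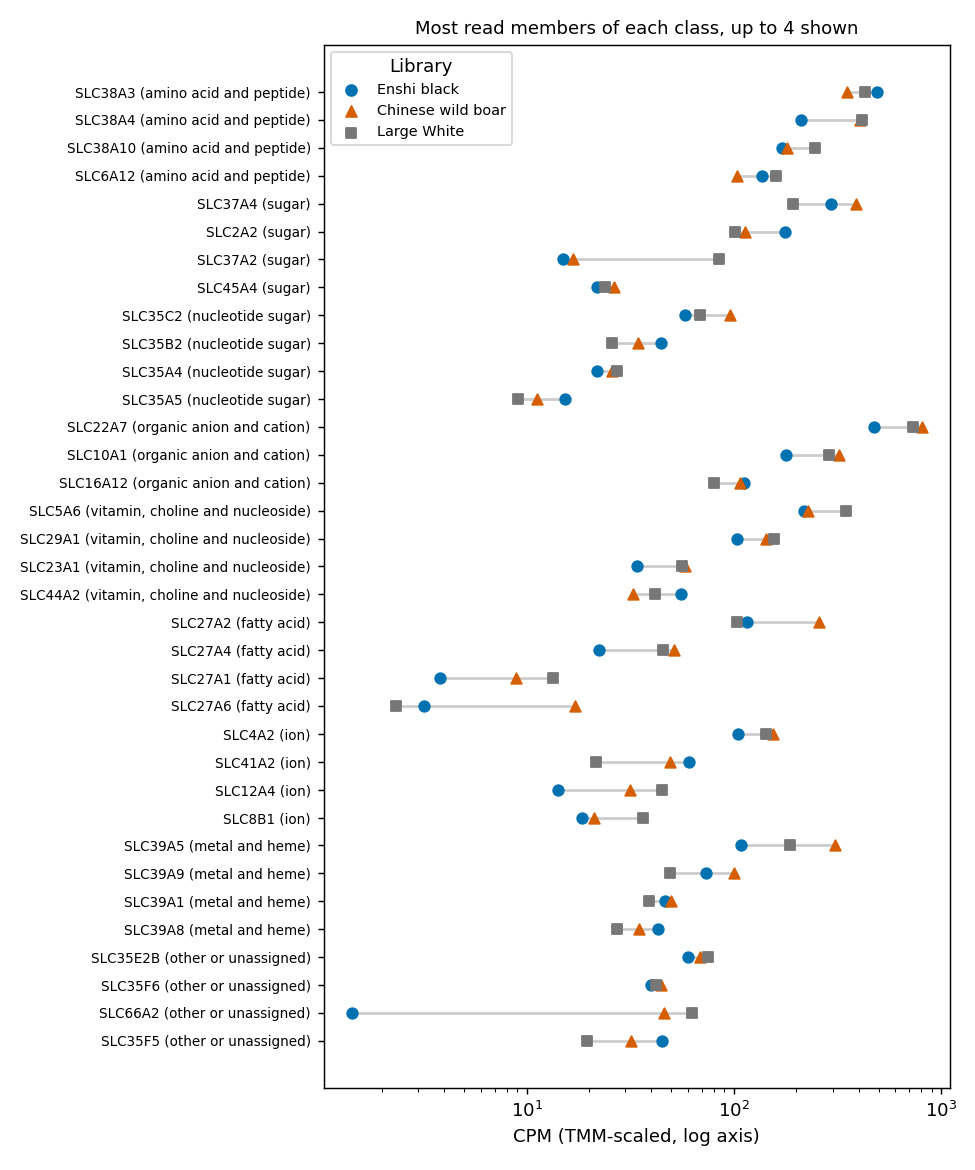
CPM (TMM-scaled, log axis) in the Enshi black (circle), Chinese wild boar (triangle) and Large White (square) libraries for the members with the most reads in each substrate class, at most 4 per class. Most triplets of symbols lie close together, while SLC66A2 (1.44 CPM in Enshi black), SLC37A2 (84.9 CPM in Large White) and SLC27A6 (17.2 CPM in Chinese wild boar) are spread widely.

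Viewed by where the carriers work, a list of 43 hepatocyte carriers had 32 symbols with an ID and 29 expressed. Of these, 2 passed higher and 2 lower in Enshi black against Large White, 1 higher and none lower in Chinese wild boar against Large White, and 2 higher and 4 lower in Enshi black against Chinese wild boar. The shares higher were 6.90%, 3.45% and 6.90%, beside 4.69%, 2.96% and 4.03% of all expressed genes, and the lower members came to 6.90%, 0% and 13.8%, beside 8.39%, 3.74% and 7.1%. The list summed to 2736 CPM in Enshi black, 3514 in Chinese wild boar and 3226 in Large White, and its median log2 folds were -0.29, 0.11 and -0.07. Lysosomal and vesicular carriers, with 15 of 22 symbols matched and 12 expressed, had no member higher in any comparison. They had 3 lower in Enshi black against Large White, which were SLC2A8, SLC30A2 and SLC37A2, and 3 lower in Chinese wild boar against Large White, which were SLC2A6, SLC30A2 and SLC37A2. Their sums were 177 CPM in Enshi black, 197 in Chinese wild boar and 304 in Large White, with median log2 folds of -0.51, -0.15 and 0.01.

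The pumps, partner subunits and regulators on which carriers depend were described as a list of 27 symbols, of which 16 had an ID and 15 were expressed. None passed in Enshi black against Large White, 2 passed lower in Chinese wild boar against Large White, and 3 higher and 1 lower in Enshi black against Chinese wild boar. The sodium pump subunit ATP1B1, with 97.1 CPM in Enshi black, 45.0 in Chinese wild boar and 54.0 in Large White, did not pass. The kinase SGK1, a regulator of several carriers, had 121, 36.1 and 81.6 CPM in the same order. It was 2.26-fold lower in Chinese wild boar than in Large White (2.07 to 2.47) and 3.35-fold higher in Enshi black than in Chinese wild boar (3.08 to 3.65).

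The arrestin ARRDC4, which takes part in the endocytosis of glucose carriers, had 32.9 CPM in Enshi black, 14.1 in Chinese wild boar and 19.7 in Large White and was 2.34-fold higher in Enshi black than in Chinese wild boar (2.04 to 2.70). Sums of markers of other liver cells also differed among the libraries, taken over every marker with an ID. Stellate cell and fibroblast markers, 7 of 10 symbols being expressed, summed to 1075 CPM in Enshi black, 563 in Chinese wild boar and 336 in Large White. COL3A1 led these sums, with 837, 383 and 232 CPM in the same order. Of the 7 markers, 6 or 85.7% were above Large White in Enshi black, beside 50.6% of all expressed genes. ACTA2 was close in the 3 libraries at 57.8, 48.8 and 42.4 CPM, and PDGFRB was lowest in Enshi black at 15.9, 18.6 and 18.0 CPM. Lymphocyte markers, 7 of 9, summed to 94.3, 35.5 and 86.4 CPM, and cholangiocyte markers, 6 of 10, to 136, 174 and 170.4 CPM. Without the members SLC4A2 and SLC5A1, which are on that list, the cholangiocyte sums were 29.1 CPM in Enshi black, 17.1 in Chinese wild boar and 26.3 in Large White, so that the order turned. Sinusoidal endothelial markers, 5 of 9, summed to 801, 719 and 1028 CPM. STAB1 made the Large White sum the highest, and without it the sums were 615, 550.4 and 529 CPM, with 4 of the 5 markers above Large White in Enshi black. Neutrophil markers, 2 of 5, summed to 6.997, 6.72 and 36.1 CPM, and erythroid markers, 2 of 7, to 44.9, 186 and 106 CPM. HBB made most of the erythroid sum, with 36.5 CPM in Enshi black, 182 in Chinese wild boar and 102 in Large White. The other erythroid marker, ALAS2, was instead highest in Enshi black, at 7.74, 3.44 and 2.92 CPM, and did not pass. Marker genes past the size rule in some comparison included LOX, COL3A1, COL1A2 and DCN of fibroblasts, CD79B, MS4A1, CD8A and CD3D of lymphocytes, STAB1 and KDR of endothelium, SPP1, HBB, CSF3R, LYZ, and APOB, FGB and TAT of hepatocytes. Their part in the carrier values was not tested.

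When the coefficient of variation of 0.4 was assumed on top of counting error, few calls remained. In Enshi black against Large White 1 member passed higher, SLC7A9, and 5 lower, SLC13A5, SLC38A1, SLC66A2, SLC6A20 and SLC7A2. Chinese wild boar against Large White kept SLC27A6 and SLC7A9 as higher and SLC30A2 as lower. Enshi black against Chinese wild boar kept SLC16A3 as higher and SLC66A2, SLC6A20 and SLC7A2 as lower. In the RefSeq annotation 57 of the 142 expressed members found there overlap another annotated gene. Among those with calls, SLC12A4, SLC27A6 and SLC2A11 each overlap a long non-coding RNA. How the reads of overlapping members were counted, with or without strand, is not stated in the labels.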

How the data were processed

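Liver RNA of 3 male pigs was sequenced, 1 library per breed. The authors deposited whole-number read counts per Ensembl gene ID for each library, not normalized, per the file headers. Per the submitters' processing notes, the build was Sscrofa10.2 and the tools included HTSeq 0.6.1, TopHat2 2.1.0 and edgeR 3.16.3. Annotation release, strand setting, multi-mapping and library kit are not stated in the labels. The 5 rows that name no gene were left out. Reads with no feature made up 18.9% to 22.0% and ambiguous reads 1.89% to 2.49% of those assigned or set apart.

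Genes with at least 1 CPM by total counts in at least 1 library were kept (13228), so a member can enter through the library in which it is high. TMM factors came from edgeR 4.0.16 in R 4.3.3. Folds had 95% exact conditional binomial (Clopper-Pearson) intervals, and median log2 folds used a prior count of 2 (Python 3.11.15, numpy 2.4.6, pandas 2.3.3, scipy 1.17.1, matplotlib 3.10.9). The rule was checked first on simulated counts that held counting noise only, so the check cannot speak to variation between animals. The labels do not mention pooling, molecular identifiers or repeat animals, so intervals cover counting error only.

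Members were chosen by symbol and sorted into 10 classes by family, and members, lists and rules were chosen with earlier results of these data known. Genes were named by a fixed rule: per class the 4 most read members and up to 3 passing members per comparison and direction, per library up to 6 members per direction that stood apart, members near absent in 1 library, every expressed member of the amino acid shortage list, and up to 3 passing genes per other list. No sequence or coordinate is reported here, nor are some genes that the rule names, though they remain in the counts, sums and medians. Alternatives changed the scaling (total counts, or size factors of DESeq2 1.42.0), the filter (none, or 10 CPM), the near bound (1.5 or 4), the interval (99.9%), the variation between animals (an assumed coefficient of 0.4), the prior count (0.5) and the summary (mean for median).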

Additional observations from a re-analysis of the deposited data

How the results depend on the processing

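Counts are given for Enshi black against Large White, Chinese wild boar against Large White and Enshi black against Chinese wild boar in this order. With a near bound of 1.5 the numbers of members higher and lower were 17 and 31, 12 and 14, and 12 and 25. With a near bound of 4 they were 1 and 6, 2 and 2, and 1 and 5. An added coefficient of variation of 0.4 left 1 and 5, 2 and 1, and 1 and 3. The wider interval left 3 lower members in the second comparison, and 1 higher and 9 lower in the third. A filter of 10 CPM left 10 lower members in the first and 8 in the third, with median log2 folds of -0.17 and -0.14, and no filter gave 5 higher in the third. Total counts gave 5 higher members in the third comparison, and turned the median log2 fold to 0.081 in the first and 0.069 in the third while moving the median of all expressed genes to 0.10. The mean log2 fold in the first comparison was -0.16. Members standing apart as higher in Enshi black numbered 4 and in Chinese wild boar 1 with total counts. With a near bound of 1.5, Enshi black had 4 higher and 18 lower, Chinese wild boar 7 higher and 2 lower, and Large White 10 higher. With a near bound of 4 these were 0 higher and 3 lower, 1 higher and 0 lower, and 1 higher and 1 lower in the same library order. DESeq2 size factors kept every call among the 22, 10 and 17 calls of named members, and total counts kept 21, 10 and 14. No paired analysis was possible because each breed has 1 library. At this depth 3 counts correspond to 0.139 to 0.154 CPM, and members near that level have wide intervals.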
